A study of Mus musculus with 24 samples.

Results

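RNA levels of 33 genes of mitochondrial and peroxisomal fatty acid oxidation were compared between 4 sorted myeloid populations of mouse colon lamina propria (LP) and the same populations of colon tumours. The genes were those of a fixed list of mouse symbols that had a row in the deposited expression table, and 33 of 33 were found among its 17301 genes. Each population and tissue had 3 libraries, 24 in all. LP came from mice of the strain labelled C57/BL and tumours from mice labelled APC/Min, which carry 1 mutant copy of the tumour suppressor Apc (Apc Min/+) and form intestinal adenomas. According to the study's methods the mice were young adults of both sexes, each library was made from tissue pooled over several mice, and tumours were accelerated with dextran sodium sulphate (DSS), a colitis-inducing agent given in the drinking water. The methods state a DSS treatment of control mice too, whereas the labels call the LP healthy, so whether the LP donors had received DSS is not settled here. The sorted populations were F4/80hi CD11b+ macrophages with high or low surface MHC class II (MHCIIhi and MHCIIlow), F4/80int Ly6Chi MHCII- monocytes and Ly6Ghi neutrophils. Tumour tissue and LP were dissociated by different protocols and came from mice of different Apc genotype, so tissue, genotype and protocol cannot be told apart. In sorted bulk samples fewer cells of a type and less RNA per cell cannot be told apart either.

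Fatty acids are first coupled to coenzyme A by acyl-CoA synthetases. Long-chain acyl-CoA then enters mitochondria by the carnitine shuttle and is shortened in repeated cycles of dehydrogenation, hydration, a further dehydrogenation and thiolysis, with electrons passed through the electron transfer flavoprotein to the respiratory chain. Peroxisomes run a parallel cycle on very-long-chain and branched acyl chains. Macrophages are known to use fatty acid oxidation during tissue maintenance and alternative activation, whereas neutrophils rely largely on glycolysis.

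Values per library are given as RPKM, read counts divided by the length of the gene and the size of the library, which allows levels of different genes to be set side by side. Differences are on the deposited log2 RPKM scale, as difference of means of groups of 3 libraries ± SE. The SE came from 1 limma model of all 24 libraries, not from the compared groups alone. A gene is said to be called, higher or lower, where its Benjamini-Hochberg adjusted p from limma was below 0.05 over 12878 genes, those whose mean RPKM reached 1 in some group. Of the members 32 did so and Acaa1b did not. Libraries are listed in the order of the donor numbers in their labels, which was III, IV, V for LP MHCIIhi macrophages, monocytes and neutrophils, II, III, IV for LP MHCIIlow macrophages, I, V, VII for both tumour macrophage subsets, and I, II, V for tumour monocytes and neutrophils. A donor number here stands for a pool of mice.

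The libraries held 12.8 to 41.7 M reads (median 26.4 M). The labelled cell types could be recognised: a list of 8 macrophage markers summed to 4219 to 8001 RPKM in the macrophage libraries and to 597 to 1126 in the others, and 7 neutrophil markers to 11604 to 30625 RPKM in neutrophils and at most 301 elsewhere. The 4 MHC class II genes summed to 39000.0 to 45690.0 RPKM in MHCIIhi and 876 to 3883 in MHCIIlow macrophages of LP, and to 16672 to 41093 and 2116 to 9853 in those of tumours. Transcripts of other cells moved with the tissue. Markers of colon epithelium, 10 in number, summed to 6.89 to 32.2 RPKM in LP macrophages, 9.17 to 62.0 in tumour MHCIIhi and 14.0 to 228 in tumour MHCIIlow macrophages (the highest in library I), 18.1 to 153 in LP monocytes and neutrophils and 119 to 327 in those of tumours, where the epithelial anion exchanger Slc26a3 had no reads in any library. The 6 monocyte markers summed to 795 to 1158 RPKM in LP and 2491 to 3372 in tumour monocytes, and to 595 to 734 in LP and 819 to 1083 in tumour neutrophils, so that tumour neutrophils overlapped LP monocytes. They summed to 58.0 to 65.5 RPKM in LP MHCIIhi, 125 to 453 in LP MHCIIlow (the highest in library II) and 12.9 to 21.3 in tumour macrophages. Fibroblast markers reached 51.7 RPKM in LP and 1.57 in tumours, and B and plasma cell markers reached 1292.9 RPKM in LP and 66.2 in tumours. The part of these transcripts in the results below was not tested.

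Promoter sequence was read for the members whose reference promoter was at hand, which was 28 of 33 (RefSeq, GRCm38.p6, 250 bases before the start). A GC box, GGGCGG on either strand, stood in 20 of 28 (71.4%), against 32.9% of 27025 promoters of all genes and 57.7% of 9067 promoters of the genes tested. The nuclear receptor half-site AGGTCA, searched on both strands, stood in 4 of 28 (14.3%), those of Acadm, Echs1, Acadvl and Cpt1a, against 13.8% of all promoters and 10.9% of the tested ones. A direct repeat of that half-site with 1 base between and up to 2 mismatches was found in 2 promoters (7.14%), Echs1 and Etfa, against 3.18% of all, and the CCAAT box in 12 (42.9%) against 34.5% of all. The longer TCAAGGTCA was found in 0 of 28 and in 0.366% of all promoters. The stretches below are the 120 bases before the start of single genes, with GC boxes and the half-site in capitals. Of these genes Acaa1a, Acads and Acsl3 were called in a comparison of tumours with LP, and Acadvl was called in none. Acaa1b is the closest relative of Acaa1a. The last stretch is the 85 bases that separate the diverging genes Hadha and Hadhb, the subunits of the trifunctional protein, on the plus strand.
Acaa1a (chr9:119341174-119341293, plus strand): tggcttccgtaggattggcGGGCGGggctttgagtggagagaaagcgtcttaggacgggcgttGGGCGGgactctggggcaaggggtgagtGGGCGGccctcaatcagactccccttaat
Acaa1b (chr9:119157094-119157213, minus strand): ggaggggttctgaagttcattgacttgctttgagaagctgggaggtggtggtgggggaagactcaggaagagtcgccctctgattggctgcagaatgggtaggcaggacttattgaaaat
Acads (chr5:115119347-115119466, minus strand): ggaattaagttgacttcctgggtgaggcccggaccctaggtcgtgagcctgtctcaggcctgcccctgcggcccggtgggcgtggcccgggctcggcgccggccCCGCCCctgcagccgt
Acsl3 (chr1:78657705-78657824, plus strand): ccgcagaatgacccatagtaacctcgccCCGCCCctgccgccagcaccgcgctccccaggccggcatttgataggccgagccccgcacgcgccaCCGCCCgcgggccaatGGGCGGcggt
Acadvl (chr11:70015429-70015548, minus strand): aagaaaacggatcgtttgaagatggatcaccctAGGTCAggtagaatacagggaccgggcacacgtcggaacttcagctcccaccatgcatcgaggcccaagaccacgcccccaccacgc
Hadha to Hadhb (chr5:30155163-30155247): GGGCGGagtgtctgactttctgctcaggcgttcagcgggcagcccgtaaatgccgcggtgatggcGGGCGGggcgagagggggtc
The Acaa1a stretch held 3 GC boxes and that of Acaa1b 0. Acaa1a was measured at 14.9 to 44.6 RPKM over the 24 libraries and Acaa1b at 0.00452 to 0.423 RPKM, which was 0 to 23 reads per library. Hadha and Hadhb, which share the short intergenic stretch with its 2 GC boxes, were measured at 10.7 to 30.7 and 2.55 to 9.29 RPKM. The letters are a description of these windows and do not show a site in use.

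Levels spanned a wide range between genes. The acyl-CoA synthetase Acsl5 lay at 23.9 to 87.8 RPKM over all libraries. The electron transfer flavoprotein subunit Etfa lay at 26.7 to 37.9 RPKM in macrophages and monocytes, and the long-chain dehydrogenase Acadl at 23.0 to 38.0 RPKM in the same groups. At the low end were Ehhadh, the peroxisomal L-bifunctional enzyme, at 0.00294 to 3.92 RPKM (0 to 350 reads) and the mitochondrial dienoyl-CoA reductase Decr1 at 0.0436 to 3.30 RPKM. Abcd2, a peroxisomal importer of very-long-chain acyl-CoA, lay at 0.175 to 4.93 RPKM. Summed over the peroxisomal members, LP MHCIIhi macrophages held 59.5 to 64.5 RPKM and tumour MHCIIhi macrophages 112 to 129.8. LP MHCIIlow macrophages held 47.7 to 50.4 and tumour MHCIIlow macrophages 109.9 to 114. The 3 electron transfer genes summed to 10.2 to 13.2 RPKM in neutrophils of LP and 12.3 to 16.2 in those of tumours, and to 41.7 to 52.7 and 48.5 to 57.2 in monocytes of LP and tumours. The sums of the carnitine shuttle were 105 to 112 RPKM in LP neutrophils and 55.0 to 63.3 in LP monocytes. Of its 4 genes 2 were called higher in LP neutrophils, Cpt1a and Slc25a20, and the other 2 had negative differences. Library sizes behind the deposited values were 0.630 to 0.682 of the summed reads in LP neutrophils. In LP monocytes they were 1.10 to 1.21 of them, so these sums depend on the scaling. The heat map of group means gives all 33 genes.

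**Figure D1:**
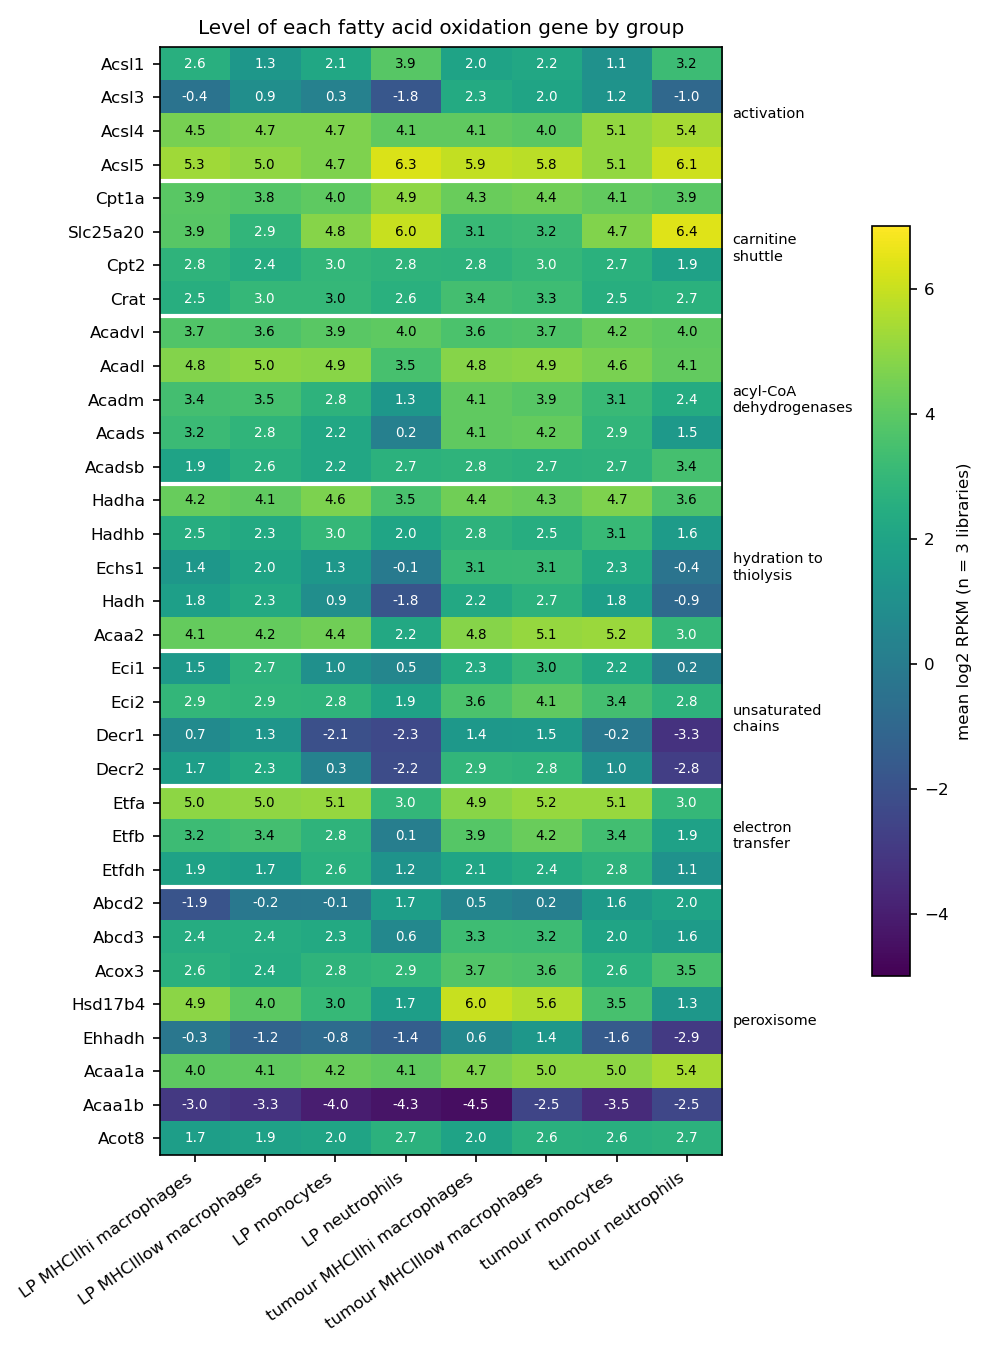
Mean log2 RPKM of each of the 33 genes (rows, ordered by role) in the 8 groups (columns), 3 libraries per group, with the value printed in each cell and colour from low (dark) to high (light). Neutrophils stand lower than monocytes of the same tissue for the hydration to thiolysis and electron transfer genes, and Hsd17b4 stands highest in tumour macrophages.

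The first question was how tumour macrophages differed from LP macrophages. In the MHCIIhi subset 12 of the 32 tested members were higher in tumours (37.5%) and 2 lower, against 8.01% and 11.5% of all tested genes. The median difference was 0.64 over members and 0 over all tested genes. In the MHCIIlow subset 10 were higher and 1 lower, against 11.5% and 11.8% of all tested genes, with medians of 0.57 and 0.06. There were 8 genes higher in both subsets: Acads, Acaa1a, Acaa2, Eci2, Echs1, Acox3, Hsd17b4 and Acsl5. They were 66.7% of the members higher in MHCIIhi and 80.0% of those higher in MHCIIlow macrophages. Of all tested genes 4.77% (614) were higher in both, which was 59.6% and 41.4% of the genes higher in each. Acsl4 was the only member lower in both. The peroxisome gave 4 of 7 tested members higher in MHCIIhi and 3 of 7 in MHCIIlow macrophages, the steps from hydration to thiolysis 2 of 5 in each, and the electron transfer genes 0 of 3 in each.

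Hsd17b4 (ENSMUSG00000024507.6, chr18:50128201-50196269, plus strand in GRCm38), the D-bifunctional enzyme that hydrates and dehydrogenates acyl-CoA in peroxisomes, was measured at 17.7, 14.3 and 15.8 RPKM in LP and 44.3, 49.5 and 51.6 in tumour MHCIIlow macrophages. In the MHCIIhi subset it was at 31.3, 28.4 and 30.5 RPKM in LP and 55.7, 70.3 and 66.1 in tumours. In both subsets the LP and tumour values did not overlap, with log2 differences of 1.61 ± 0.32, adjusted p = 0.000921 in MHCIIlow and 1.09 ± 0.32, adjusted p = 0.0204 in MHCIIhi macrophages. These were 3.05-fold and 2.12-fold. Acox3 (chr5:35583040-35615352, plus strand), an oxidase that opens the peroxisomal cycle for branched chains, was at 4.04, 6.08 and 5.74 RPKM in LP and 12.9, 12.2 and 11.9 in tumour MHCIIlow macrophages. Its groups did not overlap, and it was higher by 1.25 ± 0.19, adjusted p = 7.71e-05, with 1.13 ± 0.19, adjusted p = 0.00028 in the MHCIIhi subset (5.28 to 7.26 RPKM in LP, 12.5 to 13.9 in tumours). Acaa1a, the peroxisomal thiolase that ends the cycle, was at 16.6, 17.3 and 14.9 and 27.1, 28.4 and 21.9 RPKM in LP and tumour MHCIIhi macrophages, and at 15.1, 18.8 and 16.4 and 32.0, 31.3 and 30.6 RPKM in the MHCIIlow subset. All 6 tumour libraries were above all 6 LP libraries, by 0.66 ± 0.12, adjusted p = 0.00059 in MHCIIhi and 0.91 ± 0.12, adjusted p = 1.55e-05 in MHCIIlow macrophages. Of its 51-base stretches 16.8% also occur in other genes, in Acaa1b more than in any other, and Acaa1b had few reads.

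Among the members not grouped as peroxisomal here, Acads (chr5:115110299-115119346, minus strand), the dehydrogenase for short chains, was at 7.46, 9.90 and 4.96 RPKM in LP and 14.7, 20.6 and 18.6 in tumour MHCIIlow macrophages. The groups were apart, with a difference of 1.31 ± 0.26, adjusted p = 0.000877, and 0.87 ± 0.26, adjusted p = 0.0225 in the MHCIIhi subset (8.47 to 10.3 RPKM in LP, 14.3 to 19.6 in tumours). Echs1 (chr7:140105710-140116476, minus strand), the hydratase of short-chain enoyl-CoA, was at 3.05, 1.83 and 2.96 RPKM in LP and 8.04, 9.45 and 7.93 in tumour MHCIIhi macrophages. It was higher in every tumour library, by 1.73 ± 0.34, adjusted p = 0.00101, and by 1.14 ± 0.34, adjusted p = 0.0184 in MHCIIlow macrophages (3.28 to 5.08 and 7.52 to 9.71 RPKM). The thiolase Acaa2 and the isomerase Eci2, which moves double bonds so that unsaturated chains can pass, were higher in both subsets. Acaa2 rose by 0.70 ± 0.19, adjusted p = 0.0147 in MHCIIhi and 0.95 ± 0.19, adjusted p = 0.00119 in MHCIIlow macrophages, and Eci2 by 0.64 ± 0.19, adjusted p = 0.0191 and 1.20 ± 0.19, adjusted p = 7.9e-05. Eci2 lay at 6.23 to 8.30 RPKM in the 6 LP and 11.1 to 17.8 in the 6 tumour libraries.

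**Figure D2:**
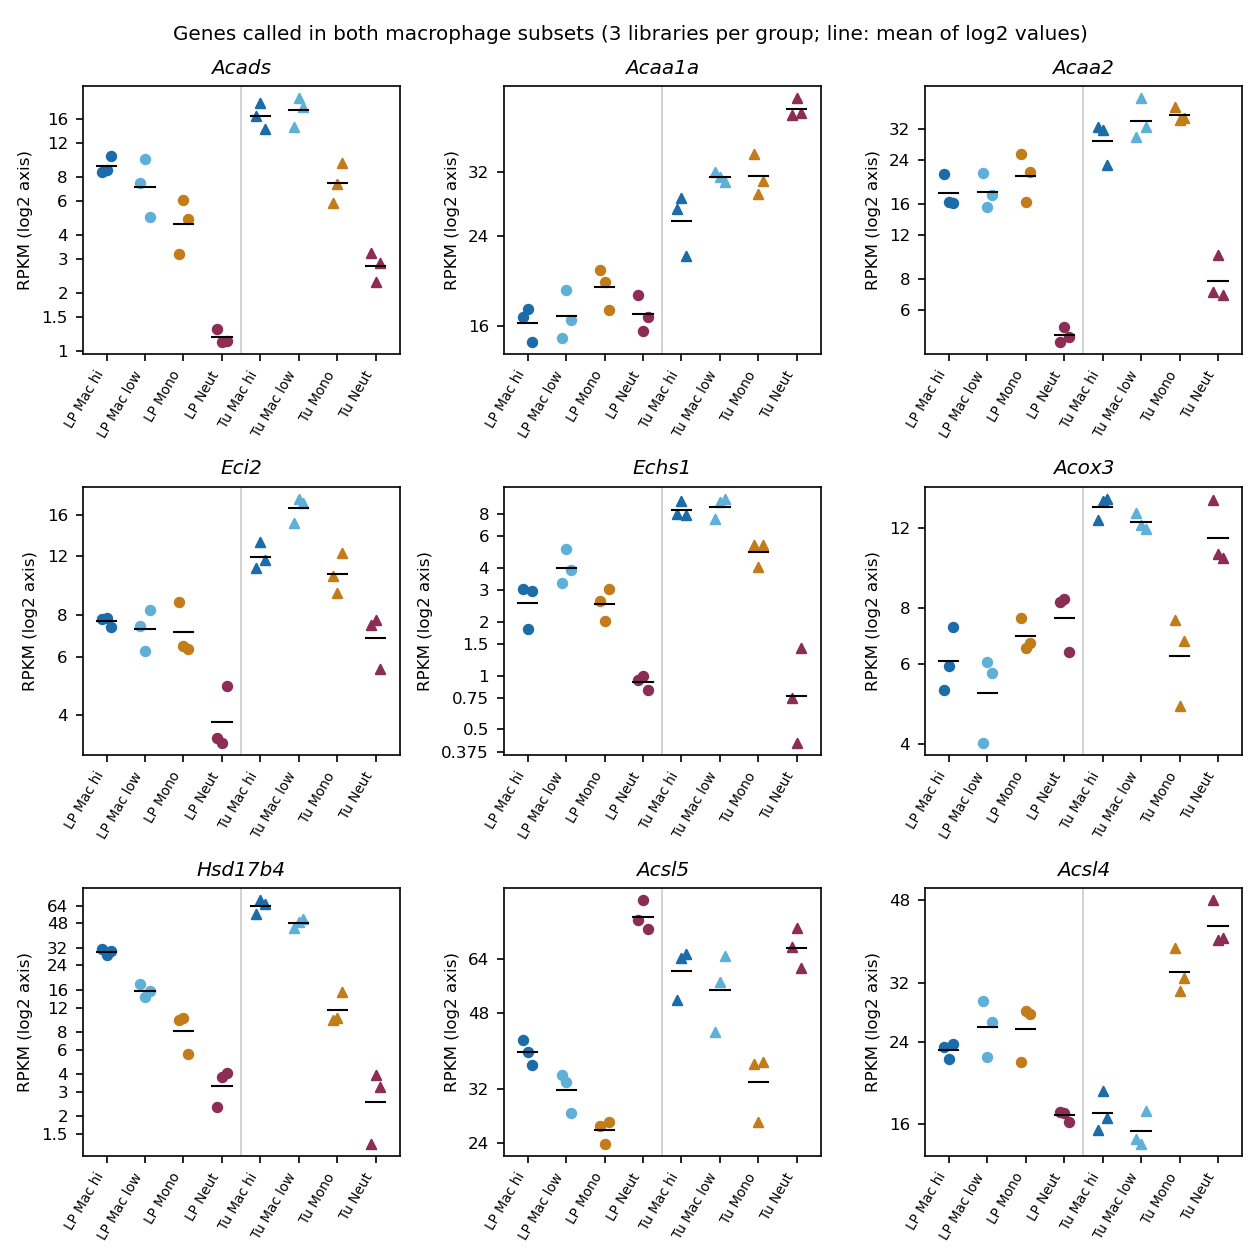
RPKM (log2 axis) of the 8 members higher and the 1 lower (Acsl4) in tumours in both macrophage subsets, in all 8 groups; circles are LP and triangles tumour libraries, 3 per group, and the line is the mean of the log2 values. Tumour macrophages lie above LP macrophages of the same subset for 8 genes and below them for Acsl4.

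The acyl-CoA synthetases did not move together. Acsl3, which is tied to lipid droplets and the endoplasmic reticulum, was at 0.877, 0.804 and 0.580 RPKM in LP and 4.85, 4.43 and 5.86 in tumour MHCIIhi macrophages. The tumour libraries were far above those of LP, by 2.75 ± 0.80, adjusted p = 0.0185, whereas in MHCIIlow macrophages the difference was 1.08 ± 0.80, adjusted p = 0.374. Acsl5 rose by 0.63 ± 0.15, adjusted p = 0.006 and 0.77 ± 0.15, adjusted p = 0.000934 in the MHCIIhi and MHCIIlow subsets, from 28.1 to 41.6 RPKM in LP to 43.6 to 65.9 in tumours. Acsl4 (chrX:142317993-142390535, minus strand), which prefers arachidonic acid, was at 23.4, 22.0 and 23.7 RPKM in LP and 15.5, 18.9 and 16.5 in tumour MHCIIhi macrophages. In MHCIIlow macrophages it was at 29.4, 22.2 and 26.4 and 14.9, 14.5 and 17.0 RPKM. All tumour macrophage libraries lay below all LP ones, by −0.45 ± 0.13, adjusted p = 0.0216 and −0.74 ± 0.13, adjusted p = 0.000338. Of the macrophage subsets, Acsl1 was called higher in MHCIIlow (0.82 ± 0.27, adjusted p = 0.0307) and had a value of −0.62 ± 0.27, adjusted p = 0.118 in the MHCIIhi subset. The test of this contrast between subsets gave 1.45 ± 0.38, adjusted p = 0.0615. Abcd2 was at 0.401, 0.297 and 0.175 RPKM in LP and 1.00, 1.04 and 2.55 in tumour MHCIIhi macrophages, a low level throughout, and was higher by 2.33 ± 0.61, adjusted p = 0.00951. In the MHCIIlow subset its value was 0.34 ± 0.61, adjusted p = 0.753. Acadsb, a dehydrogenase of short branched chains, and the carnitine acetyltransferase Crat were called higher in the MHCIIhi subset (0.87 ± 0.25, adjusted p = 0.0191 and 0.87 ± 0.26, adjusted p = 0.0229) and not in the MHCIIlow subset (0.16 ± 0.25, adjusted p = 0.712 and 0.28 ± 0.26, adjusted p = 0.501). Neither difference between the subsets was called (adjusted p = 0.433 and 0.577).

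The core of the mitochondrial pathway was read in the same libraries. Cpt1a, the outer membrane transferase that commits long chains to oxidation, was at 15.6, 15.2 and 11.4 RPKM in LP and 20.3, 22.9 and 20.2 in tumour MHCIIlow macrophages. It was higher there by 0.60 ± 0.19, adjusted p = 0.028, with no overlap, while in the MHCIIhi subset (17.5, 16.3 and 12.2 and 17.1, 23.7 and 17.1 RPKM) the groups overlapped at 0.33 ± 0.19, adjusted p = 0.263. Slc25a20, the carrier that brings acylcarnitine across the inner membrane, fell in tumour MHCIIhi macrophages from 14.9, 14.0 and 15.6 to 8.22, 11.2 and 7.24 RPKM. Every tumour library was below every LP library, by −0.76 ± 0.15, adjusted p = 0.00126, or 1.70-fold. In MHCIIlow macrophages it was at 6.42, 8.69 and 7.38 and 9.87, 10.1 and 7.92 RPKM, overlapping, with 0.31 ± 0.15, adjusted p = 0.156. Cpt2, the inner membrane transferase, gave −0.04 ± 0.30, adjusted p = 0.954 and 0.54 ± 0.30, adjusted p = 0.221 in the MHCIIhi and MHCIIlow subsets. Its values were 6.56, 7.12 and 7.58 RPKM in LP and 4.05, 9.86 and 8.11 in tumour MHCIIhi macrophages, and 4.34, 4.06 and 9.15 and 7.01, 7.91 and 8.94 in MHCIIlow ones, overlapping in both. For Acadm, the medium-chain dehydrogenase, tumour MHCIIhi libraries (13.7, 17.6 and 20.1 RPKM) stood above LP (11.4, 9.24 and 11.1 RPKM), but the difference of 0.68 ± 0.26, adjusted p = 0.0718 missed the threshold. So did 0.42 ± 0.26, adjusted p = 0.274 in MHCIIlow macrophages (7.19 to 14.7 and 14.0 to 16.2 RPKM). The missing call of Acadm in MHCIIhi macrophages depended on the setting. Acadm was called higher there with log2(RPKM + 1) (limma adjusted p = 0.0366), under quantile normalization (0.0217) and with only the compared libraries (0.0466). It was also called with arrayWeights (0.0105), with voom on whole reads (0.00834) and with summed reads as library size (0.0427). Hadha, the trifunctional subunit with hydratase and dehydrogenase activity, was at 16.4 to 19.8 RPKM in LP and 16.8 to 23.1 in tumour macrophages (0.19 ± 0.15, adjusted p = 0.432 and 0.20 ± 0.15, adjusted p = 0.387). The very-long-chain dehydrogenase Acadvl was at 11.6 to 15.7 and 10.2 to 16.5 RPKM (−0.13 ± 0.19, adjusted p = 0.697 and 0.07 ± 0.19, adjusted p = 0.833). Etfdh, which hands the electrons on to ubiquinone, was at 2.1 to 5.85 and 3.60 to 6.09 RPKM (0.16 ± 0.31, adjusted p = 0.788 and 0.66 ± 0.31, adjusted p = 0.139). For these 3 genes LP and tumour libraries overlapped. Their 95% intervals of the log2 difference in MHCIIhi macrophages ran from −0.10 to 0.49 for Hadha, −0.50 to 0.23 for Acadvl and −0.45 to 0.77 for Etfdh. With 3 libraries a group, these intervals give the uncertainty of each difference and are not limits of detection. The absence of a call for these genes does not show equal levels in LP and tumours. Acadvl shares 42.9% of its exon bases with Dvl2 on the opposite strand, and reads of the pair may be mixed.

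Several of these calls were lost when single libraries were left out. In MHCIIhi macrophages the call was kept in every alternative for Echs1, Acox3, Acaa1a, Acsl5 and Slc25a20. The others lost it where the adjusted p in parentheses passed 0.05. Acsl3 lost its call without LP library V (0.0664) and without tumour library VII (0.062), at log2 differences from 2.58 to 2.64, with an adjusted p from 0.000619 to 0.0664 over 16 alternatives. Abcd2 lost its call without LP library V (0.0526) and without tumour library VII (0.0632), at log2 differences from 1.90 to 2.01, with an adjusted p from 0.00291 to 0.0632 over 15 alternatives. Hsd17b4 lost its call without LP library IV (0.0648), without LP library V (0.0525), without tumour library V (0.0643) and without tumour library VII (0.0617), at log2 differences from 1.02 to 1.10, with an adjusted p from 5.71e-05 to 0.0648 over 16 alternatives. Acads lost its call without LP library III (0.0769), without LP library IV (0.0702), without tumour library I (0.0545) and without tumour library V (0.09), at log2 differences from 0.75 to 0.87, with an adjusted p from 0.00156 to 0.09 over 16 alternatives. Acaa2 lost its call with only the compared libraries in the fit (0.0506), without LP library IV (0.0614), without LP library V (0.0644), without tumour library I (0.0654) and without tumour library V (0.0571), at log2 differences from 0.61 to 0.70, with an adjusted p from 0.000483 to 0.0654 over 16 alternatives. Eci2 lost its call without LP library V (0.0631) and without tumour library V (0.0743), at log2 differences from 0.57 to 0.61, with an adjusted p from 0.000821 to 0.0743 over 16 alternatives. Acadsb lost its call with only the compared libraries in the fit (0.0748), without LP library IV (0.103), without LP library V (0.0505) and without tumour library VII (0.12), at log2 differences from 0.65 to 0.88, with an adjusted p from 0.0052 to 0.12 over 16 alternatives. Crat lost its call without LP library V (0.119), without tumour library I (0.055) and without tumour library V (0.0891), at log2 differences from 0.70 to 0.87, with an adjusted p from 0.00066 to 0.119 over 16 alternatives. Acsl4 lost its call without LP library III (0.0632), without LP library V (0.0712), without tumour library I (0.0857), without tumour library VII (0.0652) and with summed reads as library size (0.0981), at log2 differences from −0.43 to −0.33, with an adjusted p from 0.00932 to 0.0981 over 16 alternatives. Without LP library V, 6 members in all were called in MHCIIhi macrophages, and without other single libraries up to 12. In MHCIIlow macrophages Hsd17b4, Acads, Acox3, Eci2, Acaa2, Acaa1a, Acsl5 and Acsl4 kept their calls in every alternative. The other 3 did not. Cpt1a lost its call with libraries centred on their median (0.0571), without LP library IV (0.143), without tumour library I (0.0502), without tumour library V (0.0996) and without tumour library VII (0.0527), at log2 differences from 0.45 to 0.63, with an adjusted p from 0.0117 to 0.143 over 16 alternatives. Acsl1 lost its call with libraries centred on their median (0.0512), with only the compared libraries in the fit (0.0962), without LP library III (0.118), without LP library IV (0.0653) and without tumour library I (0.161), at log2 differences from 0.59 to 0.83, with an adjusted p from 0.0254 to 0.161 over 16 alternatives. Echs1 lost its call without LP library II (0.0787), without LP library IV (0.0517), without tumour library V (0.0608) and without tumour library VII (0.0644), at log2 differences from 0.99 to 1.11, with an adjusted p from 0.000206 to 0.0787 over 16 alternatives. Without tumour library I, which held the most epithelial transcripts, 9 members were called in this subset, and without LP library II, which held the most monocyte transcripts, 11.

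**Figure D3:**
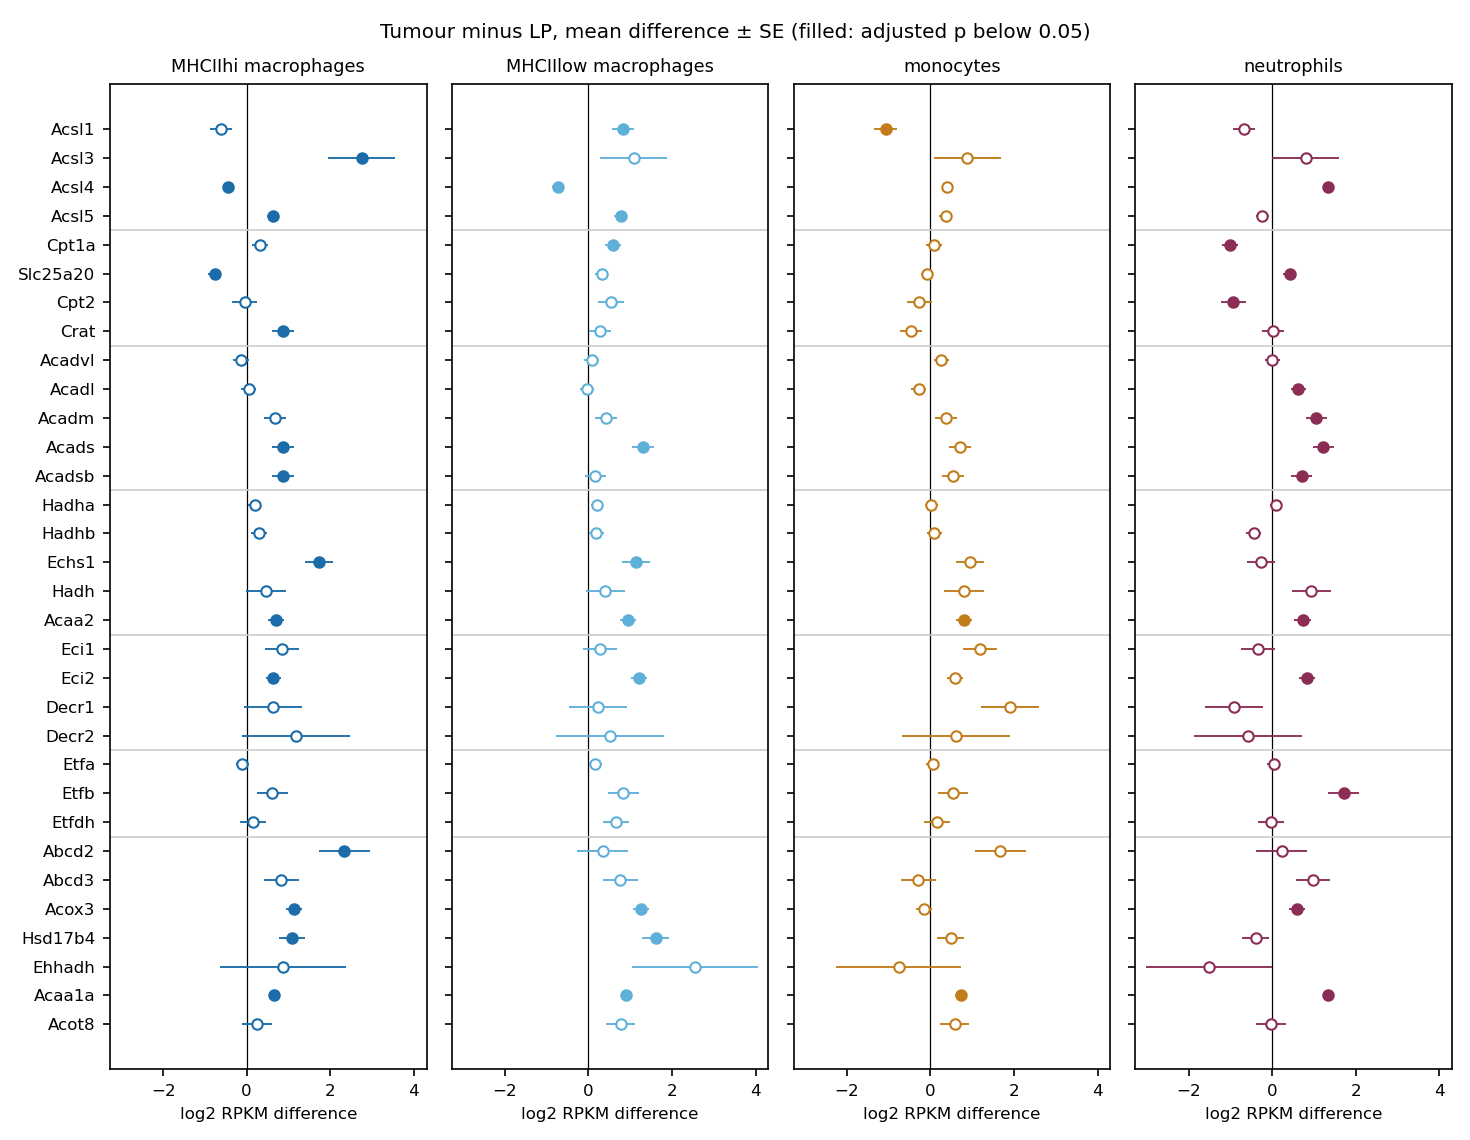
Tumour minus LP difference of mean log2 RPKM (x axis), 3 against 3 libraries, for the 32 tested members (rows, ordered by role) in each of the 4 populations. Bars are SE from the limma model of all 24 libraries, and filled points had an adjusted p below 0.05. Acaa1a and Acaa2 are filled to the right of 0 in every panel, while Acsl4 is to the left in macrophages and to the right in neutrophils.

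Between tumour and LP monocytes 2 of 32 tested members were higher in tumours (6.25%), Acaa2 and Acaa1a, and 1 lower (3.1%), Acsl1. These shares were close to the 4.86% and 4.43% of all tested genes. The median difference was 0.39 over members and 0 over all tested genes, and 24 of 32 members had a positive difference. Acaa2, the mitochondrial thiolase, was at 25.5, 16.3 and 21.5 RPKM in LP and 39.2, 34.7 and 35.5 in tumour monocytes. Acaa1a was at 20.5, 19.5 and 17.2 and 34.7, 29.0 and 30.8 RPKM. In both genes all tumour libraries were above all LP libraries, by 0.81 ± 0.19, adjusted p = 0.0107 and 0.72 ± 0.12, adjusted p = 0.000715. Acsl1 was lower in all tumour libraries, at 6.17, 4.28 and 3.18 RPKM in LP and 1.95, 1.64 and 2.87 in tumours, by −1.07 ± 0.27, adjusted p = 0.0148. Of the core genes none was called: the differences were 0.10 ± 0.19 for Cpt1a, −0.27 ± 0.30 for Cpt2, 0.26 ± 0.19 for Acadvl, 0.38 ± 0.26 for Acadm, 0.03 ± 0.15 for Hadha and 0.16 ± 0.31 for Etfdh, with adjusted p of 0.433 or more. Cpt1a was at 13.6 to 17.6 RPKM in LP and 13.5 to 19.8 in tumour monocytes, and Hadha at 21.9 to 29.7 and 21.9 to 30.7 RPKM. Over the alternatives 1 to 9 members were called in monocytes. In some of them Hadh, Echs1, Eci1, Eci2, Decr1, Abcd2, Acads or Acsl4 were called higher in tumours as well. The call of Acaa1a was kept in all alternatives, while those of Acaa2 and Acsl1 were lost in some. Acaa2 lost its call with only the compared libraries in the fit (0.0522), without LP library IV (0.0614) and without tumour library I (0.0504), at log2 differences from 0.64 to 0.81, with an adjusted p from 0.00375 to 0.0614 over 16 alternatives. Acsl1 lost its call with only the compared libraries in the fit (0.127), without LP library III (0.0975), without tumour library I (0.0575) and without tumour library II (0.0798), at log2 differences from −1.07 to −0.82, with an adjusted p from 0.00546 to 0.127 over 16 alternatives.

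In neutrophils 11 members were higher in tumours and 2 lower, against 13.1% and 19.0% of all tested genes. The median difference was 0.07 over members and −0.12 over all tested genes. Of the 5 acyl-CoA dehydrogenases 4 were higher (Acadl, Acadm, Acads and Acadsb), and both called falls were in the carnitine shuttle. Etfb, the smaller subunit of the electron transfer flavoprotein, was at 1.40, 0.530 and 1.81 RPKM in LP and 4.51, 3.03 and 3.44 in tumour neutrophils. It was higher in every tumour library, by 1.71 ± 0.36, adjusted p = 0.00129. Its exons share 58.3% of their bases with the gene model Gm45233 on the same strand, so its count depends on how shared reads were assigned. Acaa1a was at 18.4, 15.6 and 16.6 and 41.3, 44.6 and 41.8 RPKM, again without overlap, and higher by 1.34 ± 0.12, adjusted p = 2.04e-07. This was the largest of its 4 differences on the deposited scaling, on which the neutrophil values depend. Acsl4 was at 17.0, 16.9 and 16.2 and 48.1, 39.6 and 40.0 RPKM, higher in every tumour library by 1.34 ± 0.13, adjusted p = 4.73e-07, while it was lower in tumour macrophages.

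Acadm was at 2.06, 1.93 and 4.02 RPKM in LP and 5.20, 5.87 and 4.76 in tumour neutrophils, higher in every tumour library by 1.06 ± 0.26, adjusted p = 0.00371. Acads (1.23 ± 0.26), Eci2 (0.84 ± 0.19), Acaa2 (0.73 ± 0.19), Acadsb (0.71 ± 0.25), Acadl (0.62 ± 0.18), Acox3 (0.59 ± 0.19) and Slc25a20 (0.42 ± 0.15) were also called higher, with adjusted p from 0.00124 to 0.0401. Cpt1a went the other way, from 31.7, 35.7 and 26 RPKM in LP to 16.7, 13.2 and 16.1 in tumour neutrophils. All tumour libraries were below all LP libraries, by −1.02 ± 0.19, adjusted p = 0.000443, or 2.02-fold. Cpt2 fell from 6.83, 7.91 and 6.26 to 4.13, 3.80 and 3.11 RPKM, also without overlap, by −0.93 ± 0.30, adjusted p = 0.0233. Acadvl overlapped between the tissues (12.8 to 20.4 RPKM in LP, 14.6 to 19.5 in tumours, 0.01 ± 0.19, adjusted p = 0.99). Hadha (10.7 to 12.4 and 11.8 to 13.4 RPKM, 0.10 ± 0.15, adjusted p = 0.663) and Etfdh (1.55 to 2.97 and 1.64 to 2.63 RPKM, −0.03 ± 0.31, adjusted p = 0.968) did so as well.

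The direction of the neutrophil counts depended on the scaling. The deposited values use library sizes that were 0.466 to 0.682 of the summed reads in neutrophils and 0.981 to 1.51 of them in the other libraries. With the summed reads as library size, 4 members were higher and 7 lower in tumour neutrophils, in place of 11 and 2, and the median difference of all tested genes moved from −0.12 to −0.57. The calls of Acaa1a, Acsl4 and Cpt1a were kept in every alternative, this one included. The others were not. Etfb lost its call with only the compared libraries in the fit (0.0843) and with voom on whole reads (0.117), at log2 differences from 1.65 to 1.71, with an adjusted p from 0.000295 to 0.117 over 16 alternatives. Acadm lost its call with only the compared libraries in the fit (0.087), with voom on whole reads (0.105) and with summed reads as library size (0.0924), at log2 differences from 0.59 to 1.06, with an adjusted p from 0.000269 to 0.105 over 16 alternatives. Acads lost its call with voom on whole reads (0.155), at a log2 difference of 1.24, with an adjusted p from 0.000321 to 0.155 over 16 alternatives. Cpt2 lost its call under quantile normalization (0.214), with libraries centred on their median (0.0883), with arrayWeights (0.148), without LP library IV (0.0731), without tumour library V (0.0785) and with voom on whole reads (0.213), at log2 differences from −0.90 to −0.59, with an adjusted p from 0.00176 to 0.214 over 16 alternatives. Eci2 lost its call with only the compared libraries in the fit (0.068) and with summed reads as library size (0.144), at log2 differences from 0.37 to 0.84, with an adjusted p from 0.000118 to 0.144 over 16 alternatives. Acaa2 lost its call with only the compared libraries in the fit (0.053), with voom on whole reads (0.262) and with summed reads as library size (0.313), at log2 differences from 0.26 to 0.73, with an adjusted p from 0.000654 to 0.313 over 16 alternatives. Acadl lost its call with only the compared libraries in the fit (0.118), with arrayWeights (0.0564), without LP library V (0.0674), without tumour library I (0.0814), with voom on whole reads (0.0705) and with summed reads as library size (0.579), at log2 differences from 0.15 to 0.68, with an adjusted p from 0.000994 to 0.579 over 16 alternatives. Acox3 lost its call with only the compared libraries in the fit (0.084), with arrayWeights (0.131), without LP library V (0.112), without tumour library I (0.115) and with summed reads as library size (0.682), at log2 differences from 0.12 to 0.59, with an adjusted p from 0.00337 to 0.682 over 16 alternatives. Acadsb lost its call under quantile normalization (0.0784), with only the compared libraries in the fit (0.121), with arrayWeights (0.13), without LP library III (0.0672), without LP library V (0.183), without tumour library I (0.144), without tumour library II (0.0768), with voom on whole reads (0.0505) and with summed reads as library size (0.508), at log2 differences from 0.24 to 0.78, with an adjusted p from 0.0103 to 0.508 over 16 alternatives. Slc25a20 lost its call without the filter on low values (0.0572), under quantile normalization (0.257), with arrayWeights (0.182), without LP library III (0.0593), without LP library IV (0.126), without LP library V (0.0604), without tumour library I (0.0733), without tumour library II (0.067), without tumour library V (0.0959) and with summed reads as library size (0.843), at log2 differences from −0.04 to 0.46, with an adjusted p from 0.00276 to 0.843 over 16 alternatives. The value of Slc25a20 was −0.04 with summed reads. Epithelial markers summed to 21.3 to 74.1 RPKM in LP and 173 to 327 in tumour neutrophils, and B and plasma cell markers to 356 to 1293 and 0.652 to 19.9. Their part in these differences was not tested.

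Whether the tumour difference itself differed between populations was tested as an interaction. Between MHCIIlow and MHCIIhi macrophages 1 member was called, Slc25a20, against 1.13% of all tested genes higher and 0.326% lower. Its tumour minus LP difference was 0.31 ± 0.15 in MHCIIlow and −0.76 ± 0.15 in MHCIIhi macrophages, which differed by 1.08 ± 0.22, adjusted p = 0.0153. Slc25a20 lost its call with only the compared libraries in the fit (0.0926) and without tumour library V (0.0511), at log2 differences from 1.01 to 1.08, with an adjusted p from 0.00296 to 0.0926 over 22 alternatives. Between neutrophils and monocytes 3 members were called with a higher and 1 with a lower difference in neutrophils, against 3.61% and 5.5% of all tested genes. For Acsl4 the difference was 1.34 ± 0.13 in neutrophils and 0.40 ± 0.13 in monocytes (0.94 ± 0.19, adjusted p = 0.00369), called in all 22 alternatives. For Cpt1a it was −1.02 ± 0.19 and 0.10 ± 0.19 (−1.11 ± 0.27, adjusted p = 0.0136). Cpt1a lost its call under quantile normalization (0.0805), at a log2 difference of −0.90, with an adjusted p from 0.00221 to 0.0805 over 22 alternatives. Acadl, at 12.6, 12.4 and 9.41 RPKM in LP and 23.1, 15.9 and 14.6 in tumour neutrophils and at 38.0, 25.8 and 26.3 and 27, 23.0 and 23.3 in monocytes, gave 0.90 ± 0.25, adjusted p = 0.0301. Acaa1a, higher in tumours in both cell types, rose more in neutrophils (0.61 ± 0.17, adjusted p = 0.0294). These last calls were less stable. Acadl lost its call under quantile normalization (0.0742), with only the compared libraries in the fit (0.103), with arrayWeights (0.0543), without LP monocyte library III (0.0855), without LP neutrophil library V (0.0762), without tumour monocyte library II (0.0688), without tumour monocyte library V (0.0615), without tumour neutrophil library I (0.0704), with voom on whole reads (0.0799) and with summed reads as library size (0.17), at log2 differences from 0.59 to 0.94, with an adjusted p from 0.0128 to 0.17 over 22 alternatives. Acaa1a lost its call under quantile normalization (0.194), with arrayWeights (0.0754), without LP monocyte library III (0.0733), without LP monocyte library IV (0.0533), without LP neutrophil library IV (0.058), without LP neutrophil library V (0.0522), without tumour monocyte library II (0.0782), without tumour monocyte library V (0.0579), without tumour neutrophil library II (0.0578), with voom on whole reads (0.0596) and with summed reads as library size (0.242), at log2 differences from 0.31 to 0.61, with an adjusted p from 0.00941 to 0.242 over 22 alternatives.

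**Figure D4:**
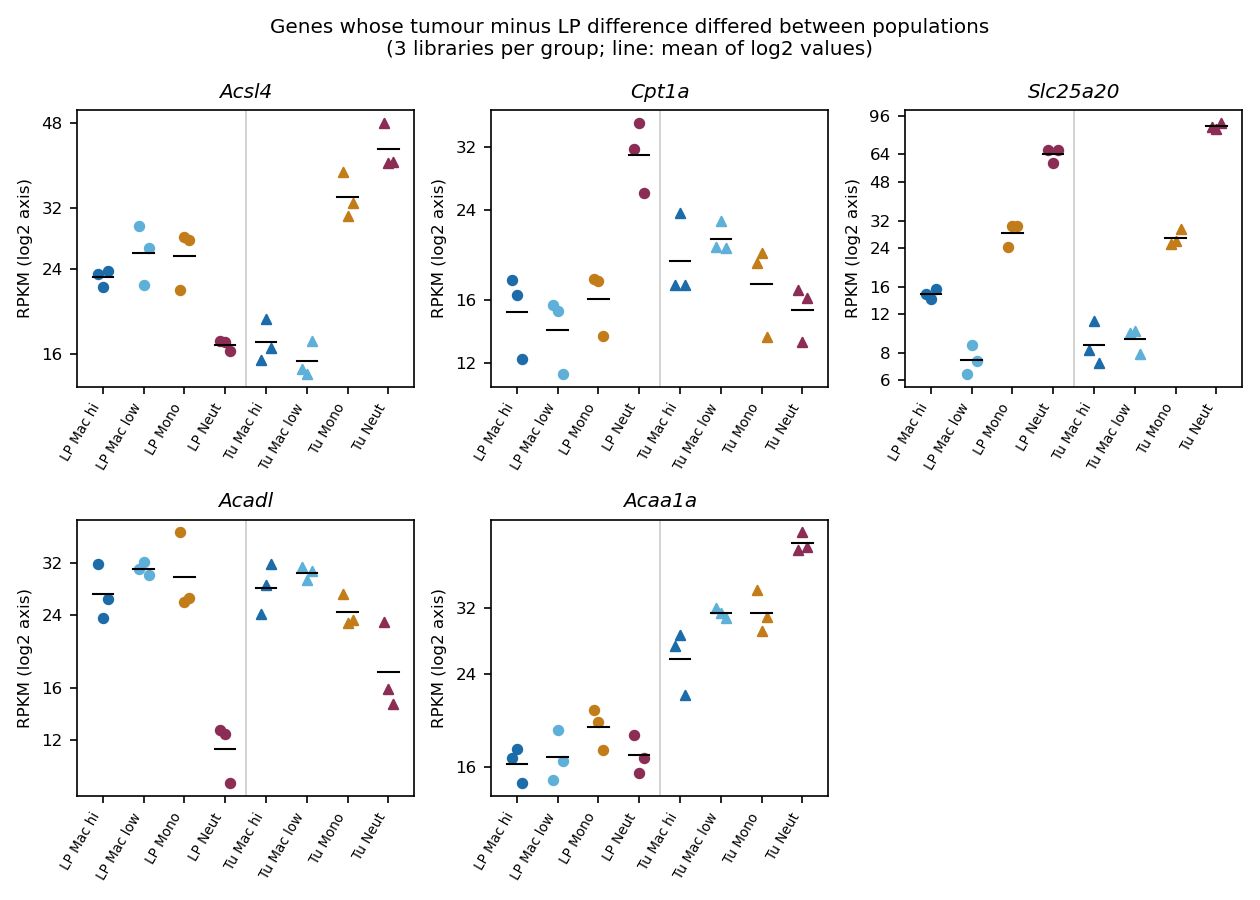
RPKM (log2 axis) of the 5 members whose tumour minus LP difference was called different between populations, in all 8 groups; circles are LP and triangles tumour libraries, 3 per group, and the line is the mean of the log2 values. Slc25a20 stands lower in tumours among MHCIIhi macrophages, Acsl4 rises in neutrophils from 16.2 to 17.0 to 39.6 to 48.1 RPKM, and Cpt1a in neutrophils comes down from 26 to 35.7 to 13.2 to 16.7 RPKM.

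The macrophage subsets were then compared within each tissue. In LP, MHCIIlow macrophages were lower than MHCIIhi macrophages in 2 members and higher in 0, against 5.57% and 2.13% of all tested genes. The member median was 0.03. Slc25a20 was at 6.42, 8.69 and 7.38 RPKM in MHCIIlow and 14.9, 14.0 and 15.6 in MHCIIhi macrophages. Acsl1, a synthetase that feeds oxidation in many tissues, was at 3.07, 2.09 and 2.57 and 6.02, 7.10 and 5.15 RPKM. Neither gene overlapped between the subsets, and they differed by −0.99 ± 0.15, adjusted p = 0.000344 and −1.25 ± 0.27, adjusted p = 0.00634, both kept in all 16 alternatives. In tumours 0 members were called by limma, against 0.567% of all tested genes higher and 0.567% lower, and 0 were called by voom. At an unadjusted p below 0.05 stood 2 members, beside 11.2% of all tested genes. There Slc25a20 was at 9.87, 10.1 and 7.92 RPKM in MHCIIlow and 8.22, 11.2 and 7.24 in MHCIIhi macrophages and Acsl1 at 6.22, 3.85 and 3.82 and 3.21, 4.24 and 4.44, overlapping for both (0.08 ± 0.15, adjusted p = 0.986 and 0.20 ± 0.27, adjusted p = 0.936). The smallest adjusted p of a member was 0.265, for Eci2 (0.49 ± 0.19). The core genes gave differences from −0.19 (Acadm) to 0.32 (Etfdh) in tumours and from −0.38 (Cpt2) to 0.07 (Acadm) in LP.

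Macrophages, as the mean of both subsets, were compared with monocytes of the same tissue. In LP 6 members were higher in macrophages and 4 lower, against 12.5% and 17.0% of all tested genes. In tumours 10 were higher and 4 lower, against 16.8% and 21.4%. Decr1, needed for chains with several double bonds, was at 0.392, 0.330 and 0.102 RPKM in LP monocytes, 1.31, 1.86 and 1.95 in LP MHCIIhi and 3.09, 1.43 and 3.25 in LP MHCIIlow macrophages. It was higher in macrophages by 3.10 ± 0.60, adjusted p = 0.000545. In tumours, with 0.707, 1.02 and 0.958 RPKM in monocytes and 2.19 to 3.30 in macrophages, the difference was 1.62 ± 0.60, adjusted p = 0.0381. Hsd17b4 was at 9.73, 10.1 and 5.57 RPKM in LP and 9.69, 10.1 and 15.4 in tumour monocytes, below every macrophage library of its tissue, by 1.42 ± 0.28, adjusted p = 0.000622 in LP and 2.27 ± 0.28, adjusted p = 1.57e-06 in tumours. In tumours this was 4.84-fold.

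Slc25a20 was lower in macrophages of both tissues. Monocytes held 24.4, 30.2 and 30.1 RPKM in LP and 25.1, 25.7 and 29.2 in tumours, above every macrophage library, with differences of −1.42 ± 0.13, adjusted p = 9.63e-08 and −1.57 ± 0.13, adjusted p = 1.03e-08. Acsl4 was lower in tumour macrophages than in tumour monocytes (38.1, 30.8 and 32.8 RPKM) by −1.06 ± 0.11, adjusted p = 3.19e-07, and gave −0.07 ± 0.11, adjusted p = 0.72 in LP, where monocytes held 21.7, 27.9 and 27.5 RPKM. Etfdh, at 7.34, 5.60 and 5.43 RPKM in LP monocytes, was lower in LP macrophages by −0.78 ± 0.27, adjusted p = 0.0328, with overlap, and gave −0.53 ± 0.27, adjusted p = 0.127 in tumours. Of the other core genes Acadm was higher in macrophages in both tissues (0.68 ± 0.22, adjusted p = 0.0259 in LP and 0.86 ± 0.22, adjusted p = 0.00473 in tumours), from 5.86 to 7.59 RPKM in LP and 8.24 to 9.21 in tumour monocytes. Hadha was lower in LP macrophages (−0.49 ± 0.13, adjusted p = 0.00703) and gave −0.32 ± 0.13, adjusted p = 0.0562 in tumours. Acadvl was lower in tumour macrophages (−0.55 ± 0.16, adjusted p = 0.00981) and gave −0.26 ± 0.16, adjusted p = 0.241 in LP. Cpt1a and Cpt2 were called in neither tissue, with differences from −0.32 to 0.22. In tumours Decr1 lost its call under quantile normalization (0.0949), with libraries centred on their median (0.0594), with the donor as a block (0.167), without tumour MHCIIhi library I (0.0555), without tumour MHCIIhi library V (0.0508), without tumour MHCIIhi library VII (0.0614), without tumour MHCIIlow library V (0.0655), without tumour MHCIIlow library VII (0.0633), without tumour monocyte library I (0.131), without tumour monocyte library II (0.0723) and without tumour monocyte library V (0.0799), at log2 differences from 1.29 to 1.73, with an adjusted p from 0.000105 to 0.167 over 18 alternatives. Acadvl lost its call without tumour monocyte library V (0.0576) and with summed reads as library size (0.338), at log2 differences from −0.48 to −0.21, with an adjusted p from 0.00238 to 0.338 over 19 alternatives. In LP Etfdh lost its call with only the compared libraries in the fit (0.0804), without LP MHCIIhi library IV (0.0501), without LP MHCIIhi library V (0.0609), without LP MHCIIlow library III (0.073), without LP MHCIIlow library IV (0.06), without LP monocyte library III (0.147), without LP monocyte library IV (0.0635), without LP monocyte library V (0.056) and with summed reads as library size (0.0755), at log2 differences from −0.86 to −0.62, with an adjusted p from 0.00318 to 0.147 over 19 alternatives. Acadm lost its call without LP MHCIIlow library II (0.0522), without LP MHCIIlow library IV (0.0617), without LP monocyte library IV (0.119) and without LP monocyte library V (0.067), at log2 differences from 0.58 to 0.70, with an adjusted p from 0.00369 to 0.119 over 19 alternatives. Hadha lost its call under quantile normalization (0.0804) and without LP monocyte library IV (0.0736), at log2 differences from −0.36 to −0.30, with an adjusted p from 0.00345 to 0.0804 over 19 alternatives. Without LP monocyte library IV, 5 members were called in LP. With the donor as a block 11 members were called in tumours in place of 14, with 4 lost (Abcd3, Decr1, Hadhb and Echs1) and 1 gained (Abcd2). In tumours the split between higher and lower members was 10 and 4, but 8 and 8 with libraries centred on their median and 15 and 2 with summed reads as library size. For all tested genes these splits were 2167 and 2760, 1760 and 3398, and 3375 and 1763.

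Neutrophils differed from monocytes in most members. In LP 5 members were higher in neutrophils and 16 lower, against 24.1% and 30.4% of all tested genes. In tumours 7 were higher and 18 lower, against 23.3% and 34.9%. The median difference was −0.77 over members in both tissues, and −0.24 in LP and −0.36 in tumours over all tested genes. All 5 genes from hydration to thiolysis and all 3 of electron transfer were lower in neutrophils of both tissues. Hadh, which dehydrogenates short hydroxyacyl-CoA, was at 3.64, 1.53 and 1.28 RPKM in LP monocytes and 0.490, 0.211 and 0.208 in LP neutrophils, lower in all of them by −2.79 ± 0.48, adjusted p = 5.5e-05. Etfb was at 4.47, 7.98 and 10.0 and 1.40, 0.530 and 1.81 RPKM in the same libraries, lower by −2.68 ± 0.36, adjusted p = 3.79e-06. Etfa, at 29.9 to 37.3 RPKM in monocytes and 6.40 to 10.1 in neutrophils, had the smallest adjusted p in both tissues (−2.13 ± 0.15, adjusted p = 7.97e-10 in LP and −2.15 ± 0.15, adjusted p = 4.97e-10 in tumours).

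In tumours Decr1 was at 0.707, 1.02 and 0.958 RPKM in monocytes and 0.0436, 0.0656 and 0.405 in neutrophils, lower by −3.07 ± 0.69, adjusted p = 0.000777. Decr2, its peroxisomal counterpart, was at 2.09, 1.58 and 2.23 RPKM in tumour monocytes and had 0 to 26 reads per library in tumour neutrophils, with 0 reads in library I. The fitted difference of −3.74 ± 1.29, adjusted p = 0.0182 rested on that library and depends on the prior count: without it the value was −1.12, adjusted p = 0.119. Decr2 lost its call with only the compared libraries in the fit (0.237) and without tumour neutrophil library I (0.119), at log2 differences from −3.74 to −1.12, with an adjusted p from 0.000877 to 0.237 over 16 alternatives. In LP the members higher in neutrophils were the synthetases Acsl1 and Acsl5, Cpt1a and Slc25a20 of the carnitine shuttle, and Abcd2, and in tumours they were Acsl1, Slc25a20, Acsl4, Acsl5, Acadsb, Acox3 and Acaa1a, of which the last 5 turned to −0.81, −0.10, −0.43, −0.27 and −0.69 with summed reads as library size and Acsl4 to −0.11 under quantile normalization. Acsl1 was at 6.17, 4.28 and 3.18 RPKM in LP monocytes and 16.3, 13.2 and 15.5 in LP neutrophils, and at 1.95, 1.64 and 2.87 and 8.48, 11.0 and 8.74 RPKM in tumours. It was higher in every neutrophil library, by 1.77 ± 0.27, adjusted p = 1.5e-05 and 2.16 ± 0.27, adjusted p = 1.06e-06, the latter 4.46-fold. Slc25a20 was at 67.1, 58.6 and 66.8 RPKM in LP and 85.1, 83.7 and 89.0 in tumour neutrophils, the highest of all groups, above monocytes by 1.19 ± 0.15, adjusted p = 1.99e-06 and 1.69 ± 0.15, adjusted p = 1.4e-08. Acsl5 was higher as well, though in tumours not with summed reads (1.65 ± 0.15, adjusted p = 2.67e-08 and 1.04 ± 0.15, adjusted p = 9.25e-06). Abcd2 was higher in LP neutrophils (3.05, 4.93 and 2.42 RPKM) than in LP monocytes (1.41, 1.63 and 0.335 RPKM), by 1.85 ± 0.61, adjusted p = 0.0146, and gave 0.41 ± 0.61, adjusted p = 0.591 in tumours.

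Cpt1a was higher in neutrophils than in monocytes of LP (31.7, 35.7 and 26 against 17.6, 17.4 and 13.6 RPKM, 0.94 ± 0.19, adjusted p = 0.000345). In tumours the groups overlapped (16.7, 13.2 and 16.1 against 18.9, 19.8 and 13.5 RPKM, −0.17 ± 0.19, adjusted p = 0.47). Cpt2 was lower in tumour neutrophils only (−0.81 ± 0.30, adjusted p = 0.0263, and −0.15 ± 0.30, adjusted p = 0.696 in LP). This contrast between tissues was not called (adjusted p = 0.362). Acadm (−1.42 ± 0.26, adjusted p = 0.000112 in LP, −0.73 ± 0.26, adjusted p = 0.0197 in tumours) was lower in both tissues. Hadha (−1.10 ± 0.15, adjusted p = 3.88e-06 and −1.03 ± 0.15, adjusted p = 7.21e-06) and Etfdh (−1.44 ± 0.31, adjusted p = 0.000603 and −1.63 ± 0.31, adjusted p = 0.000156) were likewise lower. Acadvl was called in neither tissue, at 15.0 to 20.4 RPKM in monocytes and 12.8 to 20.4 in neutrophils. Its differences were 0.07 ± 0.19, adjusted p = 0.765 in LP and −0.18 ± 0.19, adjusted p = 0.421 in tumours. With summed reads as library size limma called Acadvl lower in neutrophils of both tissues (−0.75, adjusted p = 0.0026 in LP and −1.31, adjusted p = 6.68e-06 in tumours). In LP Abcd2 lost its call with only the compared libraries in the fit (0.0711), without LP monocyte library V (0.119), without LP neutrophil library IV (0.0659) and with summed reads as library size (0.158), at log2 differences from 1.03 to 1.85, with an adjusted p from 0.00429 to 0.158 over 15 alternatives. Cpt1a lost its call with summed reads as library size (0.63), at a log2 difference of 0.12, with an adjusted p from 2.54e-05 to 0.63 over 16 alternatives. In tumours Cpt2 lost its call under quantile normalization (0.276), with libraries centred on their median (0.316), with arrayWeights (0.084), without tumour monocyte library II (0.0609), without tumour monocyte library V (0.0656), without tumour neutrophil library V (0.0901) and with voom on whole reads (0.177), at log2 differences from −0.80 to −0.37, with an adjusted p from 2.08e-05 to 0.316 over 16 alternatives. Acadm lost its call under quantile normalization (0.124), with libraries centred on their median (0.338), without tumour monocyte library II (0.055), without tumour neutrophil library V (0.0627) and with voom on whole reads (0.0892), at log2 differences from −0.73 to −0.29, with an adjusted p from 4.54e-06 to 0.338 over 16 alternatives. Acsl5 lost its call with summed reads as library size (0.66), at a log2 difference of −0.10, with an adjusted p from 1.8e-07 to 0.66 over 16 alternatives. With summed reads as library size the split was 3 higher and 23 lower in LP and 2 higher and 25 lower in tumours. For all tested genes it was 1697 higher and 6229 lower in LP and 1340 and 7252 in tumours. The median of all tested genes moved to −1.05 and −1.45, so that the calls of members higher in neutrophils are relative to the deposited scaling.

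**Figure D5:**
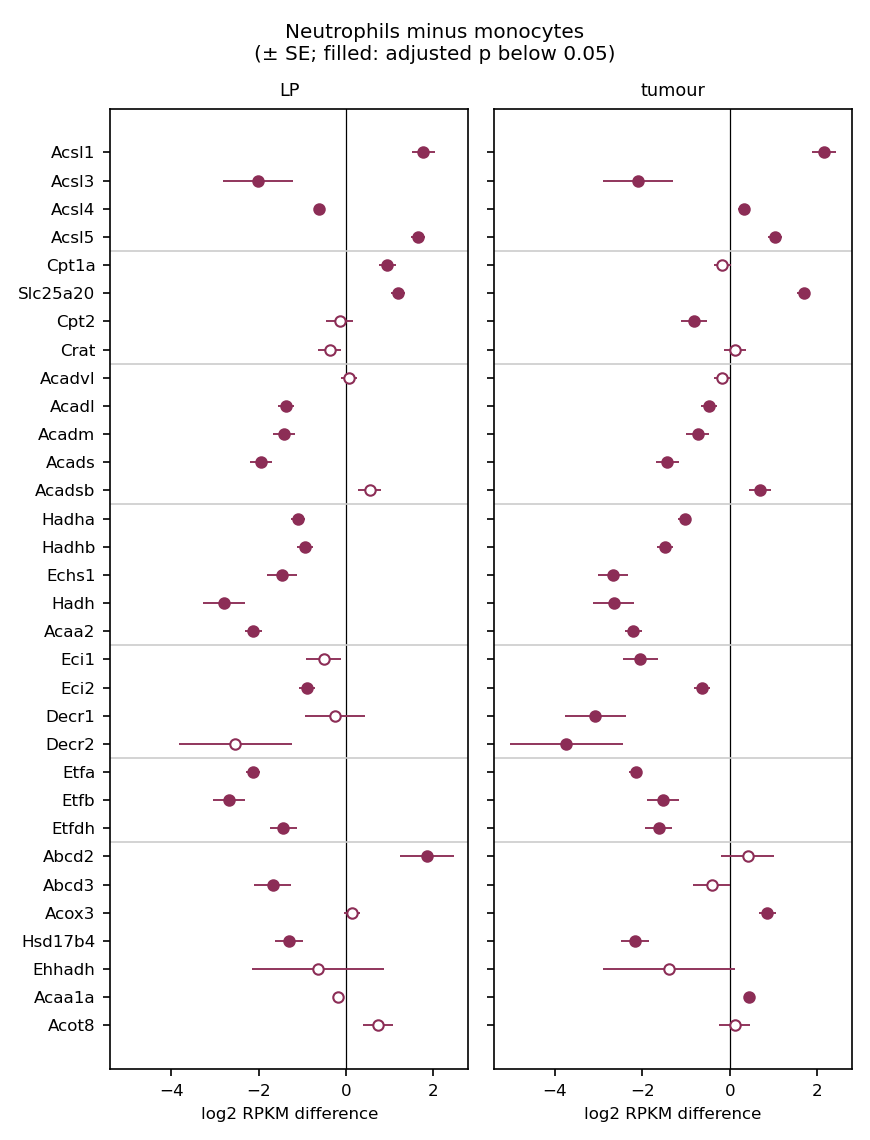
Neutrophil minus monocyte difference of mean log2 RPKM (x axis), 3 against 3 libraries, for the 32 tested members (rows, ordered by role) in LP (left) and tumours (right). Bars are SE from the limma model of all 24 libraries, and filled points had an adjusted p below 0.05. Genes from hydration to thiolysis and of electron transfer lie to the left of 0 in both panels, and Acsl1, Acsl5 and Slc25a20 to the right, where Acsl5 in tumours turns to −0.10 with summed reads as library size.

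Genes that supply fatty acids to the pathway or control it were read from a second list, of which 52 of 56 were in the table and 46 were tested. In tumours against LP, 7 of them were higher and 2 lower in MHCIIhi macrophages, and 11 and 1 in MHCIIlow macrophages. They were 5 and 3 in monocytes and 15 and 3 in neutrophils, to be read against the shares of all tested genes given above. Cd36, a fatty acid uptake receptor, was lower in tumour macrophages, from 79.3 to 106 to 11.1 to 31.3 RPKM in the MHCIIhi subset (−2.16 ± 0.73, adjusted p = 0.0423). In the MHCIIlow subset it went from 221 to 469 to 15.8 to 32.0 RPKM (−3.79 ± 0.73, adjusted p = 0.000657). Esrra, a nuclear receptor that drives oxidation genes in other tissues, was higher in both, from 0.317 to 1.47 to 1.70 to 3.68 RPKM (1.88 ± 0.46, adjusted p = 0.00584) and from 1.12 to 1.39 to 3.51 to 4.72 RPKM (1.71 ± 0.46, adjusted p = 0.00944). The lipoprotein lipase Lpl was higher in tumour MHCIIlow macrophages (1.46 to 11.3 RPKM in LP, 13.2 to 28.0 in tumours, 2.05 ± 0.64, adjusted p = 0.0237). The thioesterase Acot7 was lower in tumour MHCIIhi macrophages (15.9 to 18.7 and 5.06 to 10.0 RPKM, −1.38 ± 0.25, adjusted p = 0.000489). It was higher in tumour MHCIIlow macrophages (8.30 to 10.1 and 15.2 to 23.7 RPKM, 1.04 ± 0.25, adjusted p = 0.00425) and in tumour neutrophils (5.68 to 8.34 and 8.91 to 14.7 RPKM, 0.93 ± 0.25, adjusted p = 0.00747).

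G0s2, an inhibitor of triglyceride lipolysis, was called higher in both tumour macrophage subsets at very low levels. It had 0 to 6 reads per library in LP and 12 to 58 in tumour MHCIIhi macrophages, and 0 to 19 and 42 to 76 reads in the MHCIIlow subset, beside 974 to 1315 RPKM in LP and 3469 to 6233 in tumour neutrophils. The 7 neutrophil markers summed to 23.4 to 40.6 RPKM in LP and 38.5 to 52.8 in tumour macrophages, and their part in the G0s2 values was not tested. In monocytes Dgat2, which makes triglyceride, was higher in tumours (99.7 to 131 and 221 to 368 RPKM, 1.41 ± 0.20, adjusted p = 0.000147). The lipid droplet protein Plin2 (694 to 982 and 313 to 508 RPKM, −1.16 ± 0.24, adjusted p = 0.00398) and the fatty acid binding protein Fabp5 (13.6 to 21 and 3.98 to 9.54 RPKM, −1.40 ± 0.41, adjusted p = 0.0373) were lower. The lipase Mgll was lower too, from 24 to 65 reads per library in LP to 0 to 9 in tumour monocytes. In neutrophils the mitochondrial deacetylase Sirt3 was higher in tumours (0.512 to 3.59 and 4.78 to 6.56 RPKM, 2.08 ± 0.49, adjusted p = 0.00274). Acad11, a further acyl-CoA dehydrogenase, was higher as well (0.0657 to 0.256 and 0.781 to 1.90 RPKM, 2.82 ± 0.89, adjusted p = 0.0205). Pparg, a lipid-sensing nuclear receptor, had 0 to 4 reads per library in LP and 22 to 60 in tumour neutrophils, and the racemase Amacr 0 to 4 and 2 to 16 reads. Both were called higher.

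Peroxisome biogenesis was read as a separate list, the Pex genes that import proteins into peroxisomes or make their membranes, with 15 of 15 in the table and 14 tested. In tumours 1 was higher and 2 lower in MHCIIhi macrophages, 1 and 2 in MHCIIlow macrophages, 0 and 1 in monocytes and 4 and 2 in neutrophils. Of the 14 tested, 7.14% were higher and 14.3% lower in each macrophage subset, beside 8.01% and 11.5% of all tested genes in MHCIIhi and 11.5% and 11.8% in MHCIIlow macrophages. In neutrophils 28.6% were higher and 14.3% lower, beside 13.1% and 19.0% of all tested genes, and in monocytes 0% and 7.14%, beside 4.86% and 4.43%. The median difference of this list was 0.15 in MHCIIhi and 0.29 in MHCIIlow macrophages. Some tested members were called in no comparison of tumours with LP, the alternatives aside, and the share of all tested genes for this was not computed. They were Acadvl, Hadha, Hadhb, Hadh, Eci1, Decr1, Decr2, Etfa, Etfdh, Abcd3, Ehhadh and Acot8. In the alternatives Hadhb, Hadh, Eci1, Decr1, Decr2, Etfa, Etfdh, Abcd3 and Ehhadh were called in some such comparison. Voom on whole reads called Abcd3 and Decr2 higher in MHCIIhi macrophages (adjusted p = 0.0334 and 0.0185). It also called Ehhadh higher in MHCIIlow macrophages (0.035) and Hadh and Decr1 in monocytes (0.0469 and 0.0444). With summed reads as library size limma called Hadhb and Etfa lower in tumour neutrophils (0.00138 and 0.0243). Of the members not yet described, Hadhb lay at 2.55 to 9.29 RPKM, Hadh at 0.208 to 6.97 and Eci1, a mitochondrial enoyl-CoA isomerase, at 0.725 to 9.38. The peroxisomal transporter Abcd3 lay at 0.976 to 12.5 RPKM, the peroxisomal thioesterase Acot8 at 1.99 to 9.01 and Decr2 at 0.00387 to 9.39 over the 24 libraries.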

How the data were processed

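RNA of 24 libraries, 3 for each of 4 myeloid populations in LP and tumours, was turned by the authors into paired-end SMARTSeq v2 libraries. Per the labels, reads were aligned to GRCm38 (mm10) with STAR 2.3 and counted on GENCODE genes with featureCounts 1.5, and edgeR is named among the tools. Genes that averaged few reads in all populations had been removed. The authors deposited log2 RPKM values, in which a prior of 0.25 reads and a scaling of library size can be read from the values. Whether counting used strand is not given in the sources used here. Read numbers were worked back from the low steps of the values, and 100% of 415224 values came out whole. They served for depth and for alternatives. The 3 libraries of a group came from independent experiments on pooled mice, per the study's description.

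Groups were compared on the deposited log2 RPKM with limma 3.58.1 in R 4.3.3, in 1 model of 8 group means with a trended variance, over 12878 genes, with Benjamini-Hochberg adjustment over all of them in each of 12 comparisons and a threshold of 0.05 (two-sided). Tables and figures were made with Python 3.11.15, pandas 2.3.3, numpy 2.4.6 and matplotlib 3.10.9. The code was tested on simulated data. The members, roles, related genes and marker lists (macrophage, monocyte, neutrophil, MHC class II, colon epithelium, eosinophil, adipocyte, fibroblast, T and NK cell, and B and plasma cell) were chosen with earlier results of these data known. Per library values were given for the 3 called members of largest rise and fall in each comparison of tumours with LP or of macrophage subsets, the 2 of each in other comparisons, and Cpt1a, Cpt2, Acadvl, Acadm, Hadha and Etfdh throughout; the genes called in both macrophage subsets or in an interaction were added after their values were seen. Related genes were named where called, at most 4 per comparison of tumours with LP.

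Same-numbered libraries of a tissue carry the same donor in the labels, so the numbers pair them. The correlation of their deviations from the group means ran from −0.066 to 0.255 over 29 pairs (median 0.017). The comparisons were made without the donor as a block, and the block was an alternative. The others were log2(RPKM + 1), another filter (none, or 5 RPKM in place of 1), quantile normalization, median centring, only the compared libraries, arrayWeights and leaving out each library. Voom on whole reads and summed reads as library size were chosen after seeing the data. Coordinates are of GENCODE M21 and promoters of RefSeq. Some related genes are not reported here. Eosinophil markers (3 of 4 found) summed to at most 42.2 RPKM, T and NK cell markers (4 of 5) to at most 88.6 and the adipocyte marker found (1 of 3) to at most 0.897.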

Additional observations from a re-analysis of the deposited data

Results flagged for a closer look

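For 5 members a test of the difference itself found that the change from LP to tumours was not the same in a pair of populations. Between macrophage subsets 3.1% of the tested members were called higher and 0% lower, beside 1.13% and 0.326% of all tested genes. Between neutrophils and monocytes these shares were 9.4% and 3.1%, beside 3.61% and 5.5% of all tested genes. Slc25a20 was lower in tumour than in LP MHCIIhi macrophages and was not called in MHCIIlow macrophages (0.31 ± 0.15, adjusted p = 0.156), and the MHCIIlow minus MHCIIhi difference of the tumour effect was 1.077 on the log2 scale (adjusted p = 0.0153, limma). Its levels were 14.9, 14.0 and 15.6 RPKM in LP and 8.22, 11.2 and 7.24 RPKM in tumour MHCIIhi macrophages, and 6.42, 8.69 and 7.38 RPKM in LP and 9.87, 10.1 and 7.92 RPKM in tumour MHCIIlow macrophages, so the subsets did not overlap in LP and overlapped in tumours. Slc25a20 lost its call with only the compared libraries in the fit (0.0926) and without tumour MHCIIlow library V (0.0511), at log2 differences from 1.01 to 1.08, with an adjusted p from 0.00296 to 0.0926 over 22 alternatives.

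Between neutrophils and monocytes the tumour effect was higher in neutrophils by 0.9386 for Acsl4 (adjusted p = 0.00369), by 0.9003 for Acadl (adjusted p = 0.0301) and by 0.615 for Acaa1a (adjusted p = 0.0294). It was −1.112 for Cpt1a (adjusted p = 0.0136); its level was called lower in tumour neutrophils and in no other population. With summed reads as library size these differences were 0.63, 0.59, 0.31 and −1.42, in the same directions, with those of Acadl and Acaa1a no longer called (adjusted p = 0.17 and 0.242). Over 22 alternatives Acsl4 was called in 22, Cpt1a in 21, Acadl in 12 and Acaa1a in 11. Tissue, Apc genotype and dissociation cannot be told apart in any of these differences.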

How the results depend on the processing

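Leaving out 1 library at a time gave 6 to 12 members called for MHCIIhi macrophages of tumours against LP (14 with all libraries; 6 without LP library V), 9 to 11 for MHCIIlow macrophages (11), 1 to 3 for monocytes (3; 1 without tumour library I), 10 to 13 for neutrophils (13), 2 to 3 for MHCIIlow against MHCIIhi macrophages in LP (2) and 0 to 0 in tumours (0), 5 to 9 for macrophages against monocytes in LP (10; 5 without LP monocyte library IV) and 10 to 15 in tumours (14), 19 to 22 for neutrophils against monocytes in LP (21) and 20 to 23 in tumours (25), 0 to 1 for the tumour effect between macrophage subsets (1; 0 without tumour MHCIIlow library V) and 2 to 6 for that between neutrophils and monocytes (4; 2 without LP monocyte library III and 6 without tumour neutrophil library V).

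Other settings moved some counts by over 1.5 times. For monocytes of tumours against LP, 7 members were called with log2(RPKM + 1), 5 with the higher filter of 5 RPKM, 8 under quantile normalization, 6 with centred libraries, 1 with only the compared libraries, 8 with arrayWeights and 9 with voom. For neutrophils these were 7 with only the compared libraries, 8 with arrayWeights and 7 with voom. For MHCIIlow against MHCIIhi macrophages in LP, 4 members were called with log2(RPKM + 1), 5 with arrayWeights, 4 with voom and 4 with summed reads. For tumour macrophages against monocytes voom called 22. For the tumour effect between macrophage subsets 2 were called with each of log2(RPKM + 1), the higher filter, quantile normalization, arrayWeights and voom, and 0 with only the compared libraries. For that between neutrophils and monocytes 1 was called under quantile normalization and 2 with voom. The cause was not tested, except that fewer libraries leave fewer degrees of freedom.

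With the donor as a replicate block 11 members were called in tumour macrophages against monocytes (Abcd3, Decr1, Hadhb and Echs1 lost, Abcd2 gained) and 22 in LP neutrophils against monocytes (Acot8 gained), and the block changed no other call.

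Of 118 called member values, 64 were called in every alternative. Among 1985 alternative values, 1752 kept direction and call, 226 kept the direction only and 7 turned it. With summed reads as library size the log2 difference of tumour against LP neutrophils was −0.045 for Slc25a20, and that of tumour neutrophils against monocytes was −0.27 for Acox3, −0.43 for Acadsb, −0.69 for Acaa1a, −0.10 for Acsl5 and −0.81 for Acsl4, where quantile normalization also gave Acsl4 −0.11. Summed reads, which skip the scaling between libraries, moved the median of all genes from −0.36 to −1.45 in that comparison. With 3 libraries a group, depth of 12.8 M reads or more and one pool per library, the p-values measure the spread between pools.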
